A study of Homo sapiens with 8 samples.

Results

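The HOX genes encode homeobox transcription factors and stand side by side in 4 clusters, HOXA on chromosome 7, HOXB on chromosome 17, HOXC on chromosome 12 and HOXD on chromosome 2. Members were taken by gene symbol, not by any measured value, and placed by their RefSeq positions on GRCh38. The 38 members described here were compared with all 19817 protein-coding genes of chromosomes 1 to 22 and X. There were 10 members in HOXA, 10 in HOXB, 9 in HOXC and 9 in HOXD. A cluster ran from the first base of its first member to the last base of its last member, and its flanks were the 50 kb to each side.

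In a HOX cluster the order of the genes along the chromosome follows the order of their use from head to tail of the embryo, with the low numbers anterior and the high numbers posterior. In cells that do not use them the clusters are a textbook target of Polycomb repression, and their promoters lie in CpG-rich DNA that is kept free of DNA methylation. KDM2A is a demethylase of dimethylated lysine 36 on histone H3 (H3K36me2), and its CXXC zinc finger recognises unmethylated CpG dinucleotides. H3K36me2 is a broad mark of intergenic and gene-body chromatin and is known to oppose Polycomb activity on the same nucleosome.

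All cells were neural progenitor cells, and the starting line was H9, which is an established line of human embryonic stem cells. The stem cells had been infected with lentivirus at a multiplicity of 20 and selected with 1 ug/ml puromycin for 48 hours before differentiation. The sh1 and sh4 cells carried 1 of 2 short hairpins against KDM2A, and the NC cells were the control line. H3K36me2 was immunoprecipitated from sh1, sh4 and NC cells, and KDM2A from NC cells, each with 1 library per group and its own input. Whether the lines are clones is not given in the sources used here. Every value below therefore lacks a spread between replicates, no test between groups was possible, and both hairpins were read against the same NC library. The lists hold no RNA levels, so neither the neural progenitor label nor the loss of KDM2A in sh1 and sh4 could be checked, and KDM2A binding in the hairpin cells was not measured.

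The sequences that bear on KDM2A are its candidate targets, the CpG dinucleotides at HOX starts. Promoter windows run from 250 bases before to 50 bases after an annotated start, as given by RefSeq on GRCh38.p14, and capitals mark each CG. The first is the HOXA3 window under the KDM2A peak of highest fold on any matched HOX promoter. The second is the HOXD11 window, the best covered in its cluster. No matched HOXB or HOXC window overlapped a peak. Matched there were only the HOXB1 window and a window shared by HOXC4 and HOXC5. The third, HOXA13, has the most CG of all matched HOX windows but no peak, and was added after its values were seen.
HOXA3, chr7:27150901-27151200, minus strand: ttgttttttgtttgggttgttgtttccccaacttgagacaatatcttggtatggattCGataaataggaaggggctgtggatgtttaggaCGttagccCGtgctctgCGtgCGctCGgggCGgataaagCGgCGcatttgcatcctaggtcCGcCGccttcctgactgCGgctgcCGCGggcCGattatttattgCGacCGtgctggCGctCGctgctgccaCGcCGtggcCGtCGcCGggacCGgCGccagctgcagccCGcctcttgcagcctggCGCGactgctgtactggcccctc
HOXD11, chr2:176107030-176107329, plus strand: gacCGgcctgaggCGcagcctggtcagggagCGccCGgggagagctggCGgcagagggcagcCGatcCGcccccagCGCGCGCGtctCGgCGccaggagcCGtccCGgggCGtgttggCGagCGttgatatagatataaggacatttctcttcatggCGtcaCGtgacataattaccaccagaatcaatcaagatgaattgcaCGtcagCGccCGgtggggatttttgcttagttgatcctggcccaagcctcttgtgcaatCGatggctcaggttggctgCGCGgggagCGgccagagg
HOXA13, chr7:27200042-27200341, minus strand: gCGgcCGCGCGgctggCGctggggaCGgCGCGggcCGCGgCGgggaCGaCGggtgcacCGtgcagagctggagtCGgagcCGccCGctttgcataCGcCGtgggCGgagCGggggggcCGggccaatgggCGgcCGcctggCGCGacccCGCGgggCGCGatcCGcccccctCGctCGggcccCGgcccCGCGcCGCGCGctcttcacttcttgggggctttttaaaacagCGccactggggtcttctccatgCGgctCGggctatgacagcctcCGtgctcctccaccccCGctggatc

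The HOXA3 window held 29 CG, the HOXD11 window 27 and the HOXA13 window 44. Only 4.20% of the 34961 promoter windows in the table held as many CG as HOXA13, against 24.3% for HOXA3 and 28.2% for HOXD11. A CG reads the same on both strands, and 96.1% of all windows held at least 1.

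Deposited KDM2A peaks were dense across the HOX clusters, and they were no taller than deposited peaks in general. The 4 clusters held 210 peaks in 520.584 kb, or 4.03 per 10 kb (95% exact Poisson interval 3.51 to 4.62), against 124 peaks or 3.10 per 10 kb (2.58 to 3.70) in the flanks. The ratio of the densities was 1.30 (1.04 to 1.64). These intervals cover counting error only. All windows of 200 kb with at least 1 peak averaged 1.72 peaks per 10 kb, so the clusters stood at 2.34 times that density (2.03 to 2.68). Windows with 5 or more protein-coding genes averaged 2.24 peaks per 10 kb. Against these, a comparison added after the values were seen, the clusters stood at 1.80 times (1.56 to 2.06). These windows were not matched to the clusters for the number of genes, which was 9 to 13 per cluster with flanks. The median density of 200 kb windows was 2.05 per 10 kb at 5 genes and between 2.25 and 2.775 at 9 to 13 genes.

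The pileup is the authors' height of stacked fragments at a peak, and the fold is their linear ratio of the immunoprecipitate to background. Of all 504724 deposited peaks, 502659 lay on chromosomes 1 to 22 and X. Peaks in the clusters had a median pileup of 8 (range 5 to 13), equal to the median of these 502659 peaks. A pileup of 10 or more was reached by 24 of the 210 peaks, 11.4% (exact interval 7.46 to 16.5), against 16.7% of all peaks on chromosomes 1 to 22 and X. The median fold was 2.33 in the clusters and 2.33 over all peaks on those chromosomes. A false discovery rate (FDR) under 0.05 was given by the authors to 3 cluster peaks, 1.43% (0.296 to 4.12), against 3.08% of all peaks on those chromosomes. The deposited list runs to an FDR of 0.869, and the densities above count every peak in it. Most of the cluster peaks are thus weak calls. The peaks were thus numerous without being tall.

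Cluster peaks were also somewhat wider than the rest of the list. Their median length was 242.5 bp (range 151 to 1053), against 215 bp for all peaks. A length of 600 bp or more was found for 8 of 210, 3.81% (1.66 to 7.37), against 1.32% of all peaks on those chromosomes. HOXC held 4 of these 8, HOXA 2, HOXB 2 and HOXD none.

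The measured density of the clusters ranged from 2.90 to 4.78 peaks per 10 kb. HOXC was the densest with 56 peaks or 4.78 per 10 kb (3.61 to 6.20), and only 0.138% of the genome's 29068 windows of 100 kb were at least as dense. HOXA held 44 peaks, 4.41 per 10 kb (3.21 to 5.92), reached by 0.258% of windows. HOXB held 80 peaks over its greater length, 3.996 per 10 kb (3.17 to 4.97), reached by 0.936%. HOXD held 30 peaks, 2.90 per 10 kb (1.96 to 4.14), a density that 7.00% of windows reached. HOXB, at 200.225 kb, is longer than the windows it was ranked among. With its flanks it is also longer than windows of 200 kb. With flanks the clusters were set among windows of 200 kb. At least as dense were 2.38% of all such windows for HOXA, 0.947% for HOXB, 0.158% for HOXC and 4.06% for HOXD. Among the 200 kb windows with 5 or more protein-coding genes the shares were higher. As dense or denser were 5.02% of these for HOXA, 1.91% for HOXB, 0.201% for HOXC and 8.84% for HOXD. The counting intervals of all 4 clusters overlapped.

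Against its own flanks HOXA had the highest ratio, 2.01 (1.18 to 3.51), with 44 peaks inside and 22 in the flanks. The ratio was 1.29 (0.842 to 2.02) for HOXB, 1.26 (0.818 to 1.95) for HOXC and 0.879 (0.518 to 1.49) for HOXD, and each of these intervals includes equality. The flanks hold other genes, homeobox genes among them, and are not gene-free background. When the comparison was limited to the 10% of all peaks with the highest fold, the pooled ratio was 0.922 (0.365 to 2.38), an interval that includes both equality and the ratio over all peaks. In that setting the ratio was 0.668 for HOXA, 1.50 for HOXB, 0.853 for HOXC and 1.29 for HOXD. Too few such peaks lay in these windows to show a difference in either direction.

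**Figure D1:**
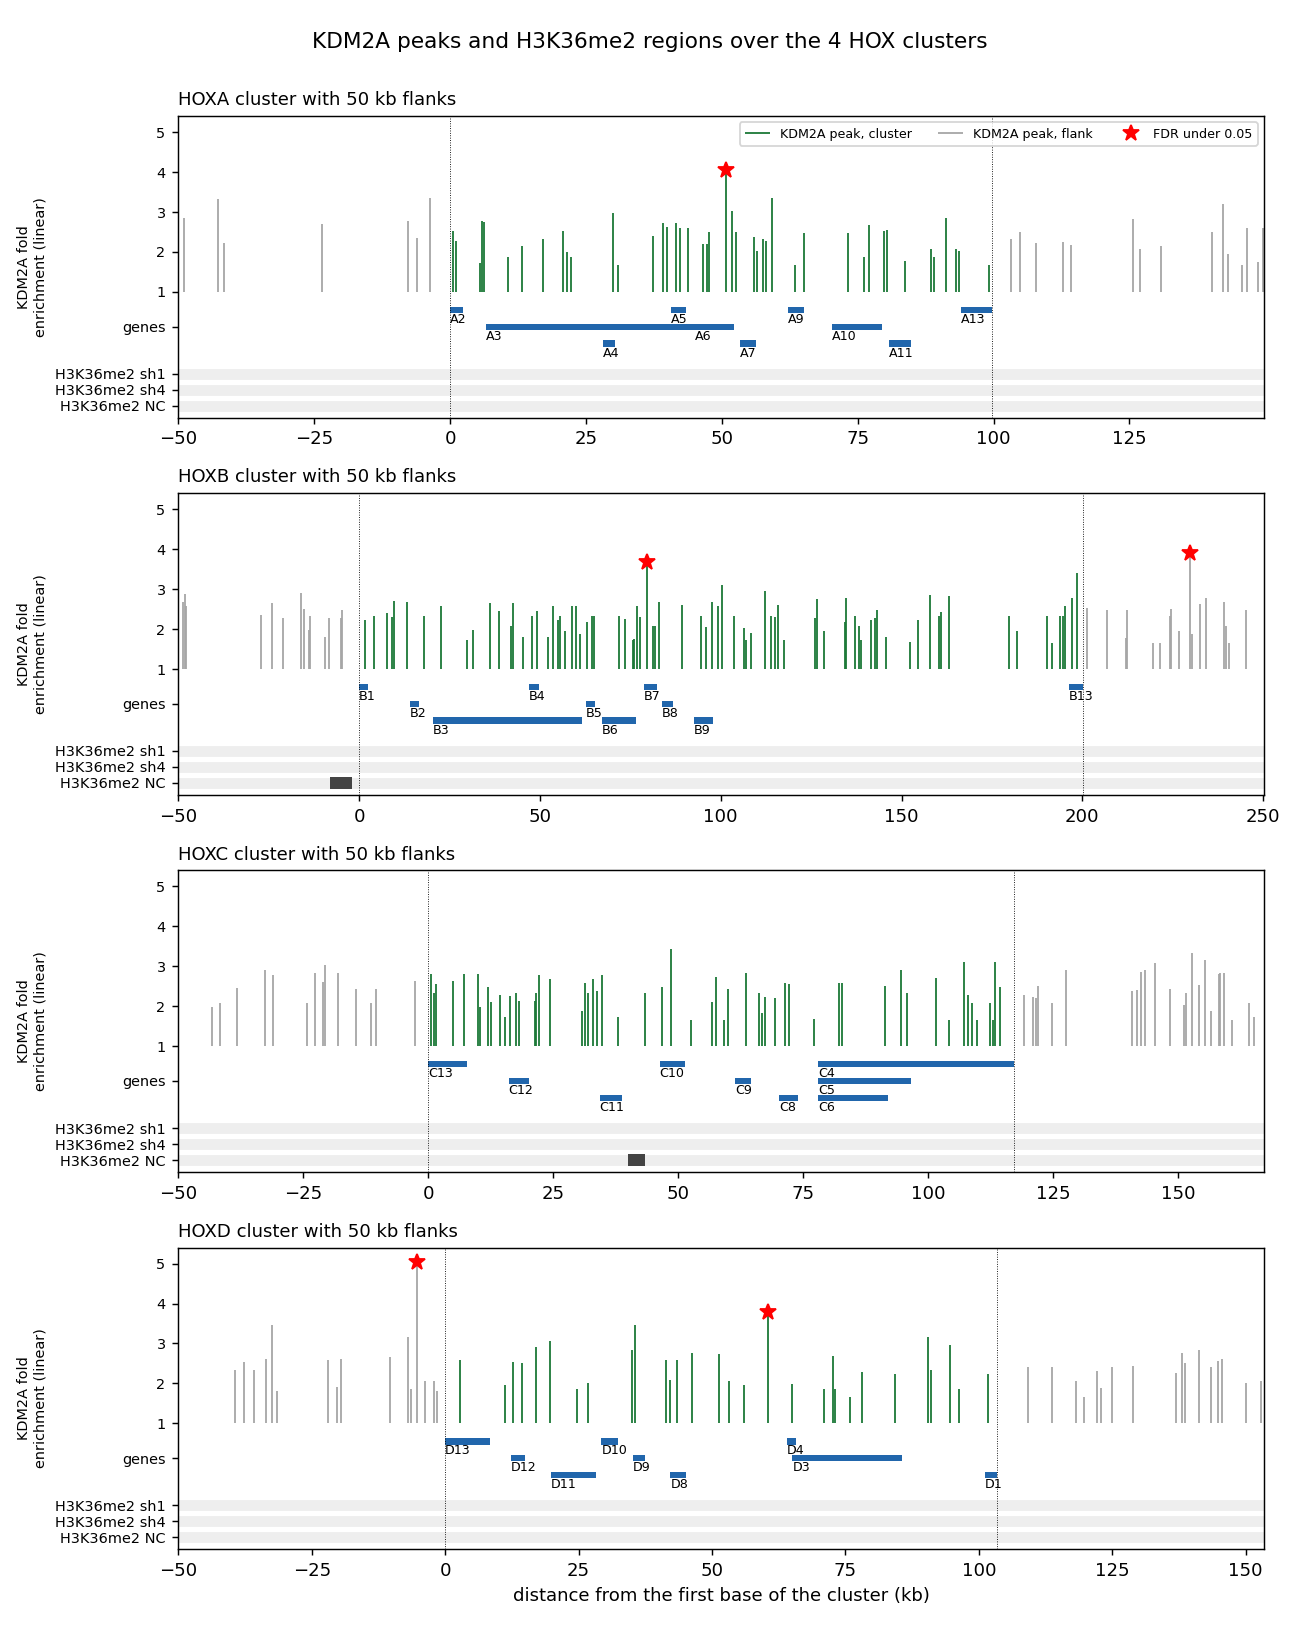
KDM2A peaks and H3K36me2 regions over each HOX cluster with 50 kb flanks. The x axis is the distance from the first base of the cluster in kb; vertical lines are KDM2A peaks at their fold (linear y axis), green in the cluster and grey in the flanks, stars mark FDR under 0.05, bars show the members, and the lower rows show H3K36me2 regions of sh1, sh4 and NC. Deposited peaks of any FDR lie across all 4 clusters, while only 2 H3K36me2 regions appear, both in NC.

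**Figure D2:**
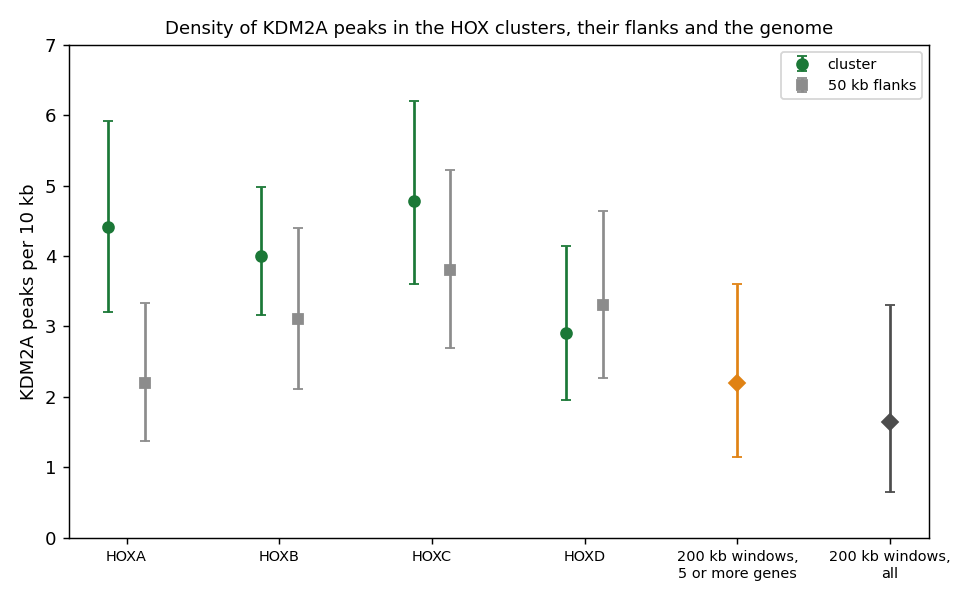
KDM2A peaks per 10 kb in each HOX cluster and in its flanks, with 95% exact Poisson intervals. The diamonds give the median of 200 kb windows with the range holding 95% of windows. That range was 1.15 to 3.6 for windows with 5 or more genes and 0.65 to 3.3 for all windows. The values of HOXA, HOXB and HOXC lie above both ranges and that of HOXD inside them. HOXA, HOXC and HOXD are shorter than these windows, and all windows of 100 kb had a wider range, 0.5 to 3.5.

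Peaks were spread over the clusters with no clear gathering at gene ends. Within 2 kb of a member's end lay 99 peaks by midpoint, 4.33 per 10 kb (3.52 to 5.27). The rest of the gene bodies held 46 peaks, 3.65 per 10 kb (2.67 to 4.87), and the sequence between members held 65, 3.92 per 10 kb (3.02 to 5.00). These 3 intervals overlap.

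Gene by gene, 37 of the 38 members carried a KDM2A peak overlapping the 2 kb to either side of an end, where the share over all protein-coding genes was 84.0%. HOXD10, which helps specify lumbar motor neurons in mouse, was the exception, with no peak in its body or within 2 kb. At an FDR under 0.05 there were 2 members, HOXA3 and HOXB7, where the share over all genes was 5.55%. Among the 10% of peaks with the highest fold (3.04 or more) there were peaks at 6 members, where the share over all genes was 16.4%. The median of the highest fold at an end was 2.68 over the 37 members and 2.59 over all genes with a peak. The median number of peaks per 10 kb of gene body with 2 kb sides was 3.81 for members and 1.90 for all genes. Members are not independent of each other, since they lie close together. HOXC4, HOXC5 and HOXC6 share their lower end, HOXA3 and HOXB3 span neighbours, and 13 of the 106 distinct peaks at member ends lay at the ends of 2 or more members.

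In HOXA the peak of highest fold lay in HOXA3, which in mouse is needed for the thymus and parathyroid. It covered 775 bp of chromosome 7, 27150736 to 27151510, with a pileup of 12, a fold of 4.06 and an FDR of 0.00626. It overlapped the antisense RNA HOXA-AS3 as well, and the list carries no strand. HOXA3 is a long gene, and its body with 2 kb sides held 23 peaks of 151 to 775 bp with a median pileup of 8.

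HOXA7 and HOXA4, both central members, followed in fold. HOXA7 had 6 peaks of 210 to 462 bp, the best with fold 3.03, pileup 9 and FDR 0.161. HOXA4 had 2 peaks of 186 and 222 bp, the best with fold 2.98, pileup 10 and FDR 0.145. HOXA5, which acts in lung development in mouse, had 5 peaks, a highest pileup of 10 and a highest fold of 2.73. HOXA6 had 4 peaks with a highest pileup of 8 and a highest fold of 2.60. None of these 4 had a peak at FDR under 0.05.

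The other HOXA members were lower. HOXA2, which patterns the hindbrain and the second pharyngeal arch, had 2 peaks of 270 and 505 bp and a highest fold of 2.54. HOXA9, a regulator of blood progenitors that is often raised in acute leukaemia, had 2 peaks of 195 and 258 bp and a highest fold of 2.49. HOXA10 and HOXA11, both needed in the uterus, had the same best peak, 460 bp with fold 2.55, and held 5 and 3 peaks. HOXA13, which shapes the hand, foot and genital tract, had 3 peaks of 183 to 291 bp and a highest fold of 2.08, the lowest in the cluster. The widest peak of any cluster, 1053 bp with fold 2.85 and FDR 0.186, lay 2302 bp from HOXA13.

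In HOXB the peak of highest fold lay in HOXB7, a central member. It covered 253 bp of chromosome 17, 48608022 to 48608274, with a pileup of 12, a fold of 3.68 and an FDR of 0.0194. HOXB7 held 6 peaks of 203 to 537 bp in its body with 2 kb sides. HOXB13, a gene of prostate development that lies apart from the rest of its cluster, came next with 5 peaks. Its best had 441 bp, a pileup of 11, a fold of 3.41 and an FDR of 0.0522, just outside the limit.

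The remaining HOXB members stood close together. HOXB2, HOXB8 and HOXB9 each had a best peak of fold 2.68, pileup 8 and FDR 0.297, on 3 separate peaks of 190, 203 and 171 bp. HOXB2 and HOXB8 had 2 peaks each, none of them inside the gene body, and HOXB9 had 4. HOXB3 and HOXB6 both reached a fold of 2.59, with 19 peaks over the long body of HOXB3 and 6 over HOXB6. HOXB4, known for expanding blood stem cells when forced on, had 3 peaks of 182 to 242 bp and a highest fold of 2.47. HOXB5 had 4 peaks of 277 to 359 bp and a highest fold of 2.33. HOXB1, which marks the fourth rhombomere of the hindbrain, had 2 peaks and the lowest highest fold of the cluster, 2.32.

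In HOXC no peak reached an FDR under 0.05. HOXC10, a lumbar-level member in mouse, had the highest fold, 3.44, on a peak of 856 bp with a pileup of 10 and an FDR of 0.0644. HOXC5 followed at 2.90 (pileup 9, FDR 0.189, 301 bp) among 6 peaks, and HOXC9 at 2.84 (pileup 10, FDR 0.186, 170 bp) among 3. HOXC12 had 8 peaks in and around a body of 4054 bp, which at 9.93 per 10 kb was the densest member of any cluster. Its peaks were 151 to 352 bp long with pileups up to 10 and folds up to 2.79.

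HOXC13, a gene of hair and nail formation, had 5 peaks of 151 to 297 bp with a highest fold of 2.81. HOXC11 had 4 peaks with a highest fold of 2.79, and HOXC8 had 3 with a highest fold of 2.59, the best of them 710 bp long. HOXC4 had 17 peaks over a body of 39143 bp but only 2 at its ends, with a highest fold there of 2.29. HOXC6 had 4 peaks and a highest fold of 2.51. The HOXC members thus lay within a narrow range of folds, 2.29 to 3.44.

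In HOXD the best member was HOXD9, with 2 peaks, of which the better had 325 bp, a pileup of 10, a fold of 3.47 and an FDR of 0.0644. HOXD11 and HOXD12, which act in the limb, followed with folds of 3.07 (444 bp, pileup 9, FDR 0.150) and 2.90 (211 bp, pileup 9, FDR 0.189). HOXD8 had 4 peaks of 229 to 280 bp and a highest fold of 2.77. HOXD13, mutated in synpolydactyly, had 3 peaks and a highest fold at its ends of 2.07.

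Among members with a peak, HOXD4 had the lowest highest fold. HOXD1 and HOXD4 had 1 peak each, both of 151 bp, with pileups of 8 and 6 and folds of 2.24 and 1.98. HOXD3 had 7 peaks, 2 of them at its ends, with a highest fold there of 2.23. The peak of highest fold inside the HOXD cluster was at no member's end. It covered 217 bp, chromosome 2, 176147805 to 176148021, with a pileup of 13, a fold of 3.79 and an FDR of 0.00913, and lay 3528 bp from HOXD4.

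**Figure D3:**
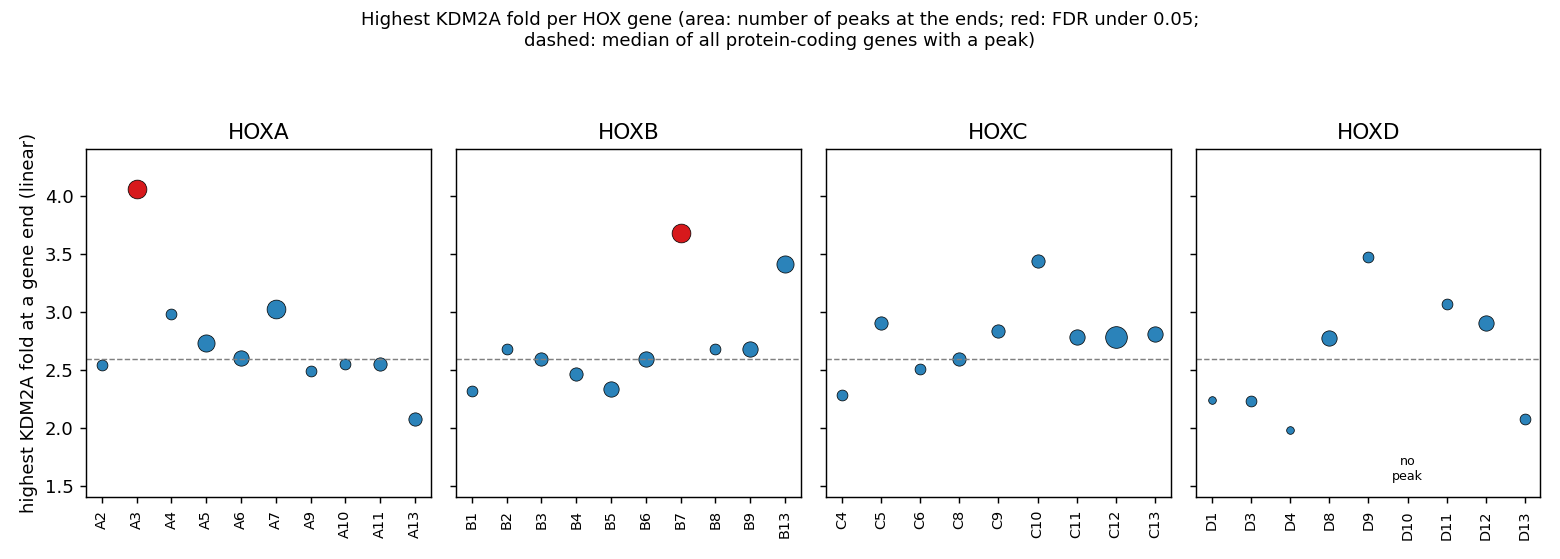
Highest KDM2A fold (linear) at an end of each HOX member, one panel per cluster, in the order of their numbers. The area of a point gives the number of peaks at the ends, red marks FDR under 0.05 (HOXA3 and HOXB7), the dashed line is the median of all protein-coding genes with a peak, 2.59, and HOXD10 has no peak.

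Position along the body axis did not separate the members. Anterior members (numbers 1 to 3) had a peak in 7 of 7 cases and a median highest fold of 2.54. Central members (4 to 8) had a peak in 15 of 15 cases and a median of 2.60. Posterior members (9 to 13) had a peak in 15 of 16 cases and a median of 2.79. The ranges overlapped almost fully, at 2.23 to 4.06 for anterior, 1.98 to 3.68 for central and 2.07 to 3.47 for posterior members. The highest anterior fold, 4.06, belongs to a peak at the far end of the long HOXA3 gene. By position that peak lies between HOXA6 and HOXA7, both central members.

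At promoter windows KDM2A peaks were counted for those members whose start is known. RefSeq windows were found for 20 members, 27 entries at 26 distinct positions, of which 7 belong to HOXA3. HOXA5, HOXB2, HOXB3, HOXB4, HOXB5, HOXB6, HOXB7, HOXB8, HOXB9, HOXB13, HOXC6, HOXC8, HOXC9, HOXC10, HOXC11, HOXC12, HOXC13 and HOXD9 had no entry. A KDM2A peak overlapped 8 of the 26 windows, 30.8%, where the share over all 34961 entries was 19.3%. The 8 belonged to 6 genes, HOXA3 with 3 windows and HOXA6, HOXA7, HOXA9, HOXD8 and HOXD11 with 1 each. At an FDR under 0.05 there was 1, the printed HOXA3 window, where the share over all entries was 0.738%. A peak lay within 1 kb of the start for 21 of the 26 windows, 80.8%, against 48.5% of all entries.

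Windows with a KDM2A peak held more CG in HOX genes and in the genome alike. The median was 28 CG in the 8 HOX windows with a peak and 20 in the 18 without, against 21 and 12 over all entries. Over all entries the share with a peak was 12.8% at 0 to 4 CG, 16.1% at 5 to 9, 19.7% at 10 to 19, 24.1% at 20 to 29 and 25.5% at 30 or more. HOX windows held more CG than the table as a whole, with a median of 22.5 against 14, and most fell in the upper 3 classes. The HOX counts were 0 of 2, 0 of 2, 2 of 7, 4 of 11 and 2 of 4 in the same classes. The 2 HOX windows richest in CG overlapped no peak. The HOXA13 window had its nearest peak 493 bp from the start, and HOXD1 with 36 CG had its nearest at 525 bp. Across 19 members with a window and a peak, the correlation of their highest CG count with their highest fold was 0.18 (Pearson) and 0.26 (Spearman). Points from neighbouring genes in 1 library are not independent.

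**Figure D4:**
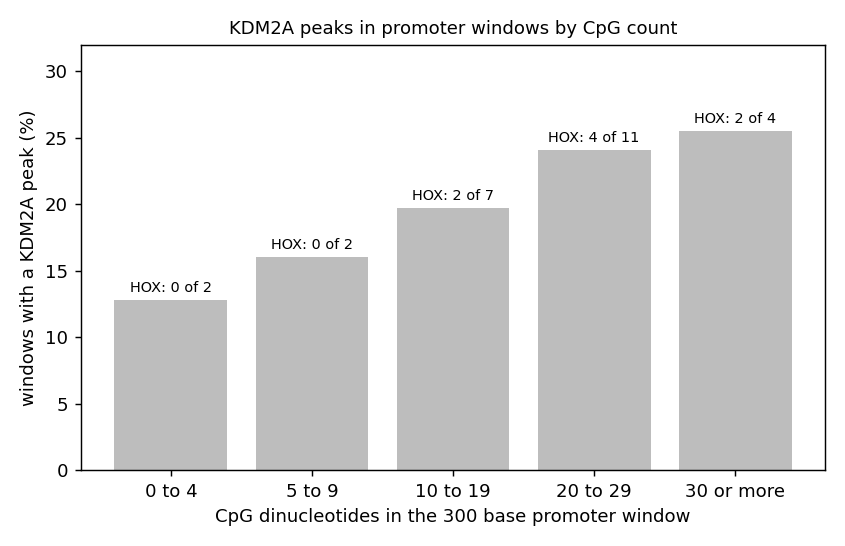
Percent of RefSeq promoter windows of 300 bases that overlap a KDM2A peak, by the number of CG in the window, over all 34961 entries. The text on each bar gives the HOX windows with a peak out of those in the class; the bars climb with CpG count, 12.8% at the low end and 25.5% at the high end.

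No called H3K36me2 region overlapped the body of any of the 38 members in any of the 3 libraries. The count was 0 of 38 in sh1, 0 of 38 in sh4 and 0 of 38 in NC. The shares over all protein-coding genes were 16.2% in sh1, 15.4% in sh4 and 20.0% in NC. Such overlap depends on gene length, which was not matched, and the 38 members lie in only 4 clusters. The share of all genes with a region in NC and in neither hairpin was 7.40%. No member could fall in that class, since none had a region in NC. Clusters with flanks were free of regions in sh1 and sh4, and 1.04% of their length was covered in NC. Over the genome the covered share was 3.24% in sh1, 3.85% in sh4 and 3.49% in NC. In windows with 5 or more protein-coding genes it was 0.502% in sh1, 0.602% in sh4 and 1.13% in NC.

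A region within 50 kb was found for 0 of 38 members in sh1, 0 of 38 in sh4 and 13 of 38 in NC, where the shares over all genes were 31.0% in sh1, 28.7% in sh4 and 41.7% in NC. The 13 members, 4 in HOXB and 9 in HOXC, rested on only 2 regions. The NC region at HOXC lay inside the cluster, between HOXC11 (1157 bp away) and HOXC10 (2945 bp away), at chromosome 12, 53978801 to 53982200. It was 3400 bp wide with 114 immunoprecipitate and 69 input reads and a fold of 1.63 (counting interval 1.20 to 2.23), and held 1 KDM2A peak.

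The NC region at HOXB lay in the flank, 1925 bp before HOXB1, at chromosome 17, 48520401 to 48526600. It was 6200 bp wide with 233 immunoprecipitate and 166 input reads and a fold of 1.38 (1.13 to 1.70), and held 2 KDM2A peaks. Neither region had a counterpart in sh1 or sh4, and the same was true of 74.2% of all NC regions. Every deposited region had an FDR under 1e-05, so a missing call does not show that the mark was absent. The median region held 151 and 89 reads (immunoprecipitate and input) in sh1, 156 and 92 in sh4, and 162 and 99 in NC.

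Windows of 200 kb free of H3K36me2 are not rare, least of all among gene-rich ones. HOXA and HOXD with flanks had no region in any of the 3 libraries, as did 22.8% of all windows and 58.7% of windows with 5 or more protein-coding genes. HOXB and HOXC had a region in NC and in neither hairpin, as did 10.4% of all windows and 17.4% of the gene-rich ones. HOXB with flanks is longer than these windows, so it has more sequence in which a region could lie. A region was present in 53.2% of all windows in sh1, 54.7% in sh4 and 60.5% in NC. Among the gene-rich windows the shares were 16.5% in sh1, 14.6% in sh4 and 31.3% in NC.

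The nearest regions lay farther off in the hairpin cells at 3 clusters and closer at HOXD. From HOXA the shortest gap was 318509 bp in sh1, 340509 bp in sh4 and 100109 bp in NC. From HOXB it was 374650 bp in sh1, 1714850 bp in sh4 and 1925 bp in NC. From HOXC it was 216570 bp in sh1, 99830 bp in sh4 and 0 bp in NC. From HOXD it was 81086 bp in sh1, 96486 bp in sh4 and 214286 bp in NC. Over single genes the median gap of HOX members was 329712 bp in sh1, 347938.5 bp in sh4 and 107538.5 bp in NC, against 182042 bp in sh1, 212567 bp in sh4 and 80574 bp in NC for all protein-coding genes.

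On the HOTAIRM1 side of HOXA the nearest region lay 673153 bp away in sh1 (6200 bp wide, fold 1.47), 516553 bp in sh4 (5400 bp, 1.65) and 517753 bp in NC (3400 bp, 1.56). The sh4 and NC regions there overlapped each other. On the HOXA13 side the nearest sh1 region was 6200 bp wide with fold 1.52. The nearest sh4 region there was 4800 bp wide with fold 1.57 in HIBADH, a gene of valine breakdown, and the nearest NC region was 4400 bp wide with fold 1.50.

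Around HOXB the hairpin libraries had long empty stretches. Of all protein-coding genes, 37.5% lay at least as far from a region as HOXB in sh1, and 15.7% in sh4. The whole of chromosome 17 was also less covered in the hairpin libraries, 0.874% in sh1 and 0.809% in sh4, against 1.62% in NC. On the HOXB1 side the nearest region lay 1765325 bp away in sh1 (2200 bp, fold 2.04, over LRRC37A2 and WNT3) and 1783725 bp in sh4 (5000 bp, fold 1.50, over LRRC37A2 and NSF). On the HOXB13 side the sh1 region was 8600 bp wide with fold 1.36, the sh4 region was 3000 bp wide with fold 1.73 in ACSF2, and the NC region lay 292450 bp away in IGF2BP1 (5200 bp, fold 1.50).

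Around HOXC the nearest regions on the HOXC13 side lay 2039230 bp away in sh1 (4000 bp, fold 1.45), 99830 bp in sh4 (5200 bp, fold 1.75) and 821830 bp in NC (4200 bp, fold 1.55, in SOAT2). On the HOXC4 side they lay 216570 bp away in sh1 (3400 bp, fold 1.54, in CBX5), 395970 bp in sh4 (6600 bp, fold 1.45, in GTSF1) and 480170 bp in NC (5000 bp, fold 1.55, in NCKAP1L). CBX5 encodes the heterochromatin protein HP1 alpha.

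Around HOXD the nearest regions in the hairpin cells lay on the HOXD13 side. The nearest sh4 region on the HOXD13 side, in LNPK, was 3600 bp wide with 119 immunoprecipitate and 36 input reads and a fold of 3.27 (2.23 to 4.89). The nearest sh1 region on that side was 2400 bp wide with 110 and 60 reads and a fold of 1.81 (1.31 to 2.53). The NC region there was 8000 bp wide with 280 and 204 reads and a fold of 1.35 (1.12 to 1.63). On the HOXD1 side the gaps were 326493 bp in sh1 (6800 bp, fold 1.61), 201493 bp in sh4 (3600 bp, fold 1.57) and 230893 bp in NC (3400 bp, fold 1.59).

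Within 500 kb the totals over the 4 clusters were alike between libraries, while single clusters differed. Regions numbered 13 in sh1, 16 in sh4 and 14 in NC over the 4 clusters, covering 1.49% of the sequence in sh1, 1.60% in sh4 and 1.53% in NC. HOXD had 8 in sh1, 10 in sh4 and 3 in NC. They covered 3.61% of the sequence around HOXD in sh1, 4.02% in sh4 and 1.36% in NC, against 4.40% of the whole of chromosome 2 in sh1, 4.40% in sh4 and 4.72% in NC. HOXA had 3 in sh1, 4 in sh4 and 5 in NC. HOXB had 1 in sh1, 0 in sh4 and 4 in NC. HOXC had 1 in sh1, 2 in sh4 and 2 in NC.

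**Figure D5:**
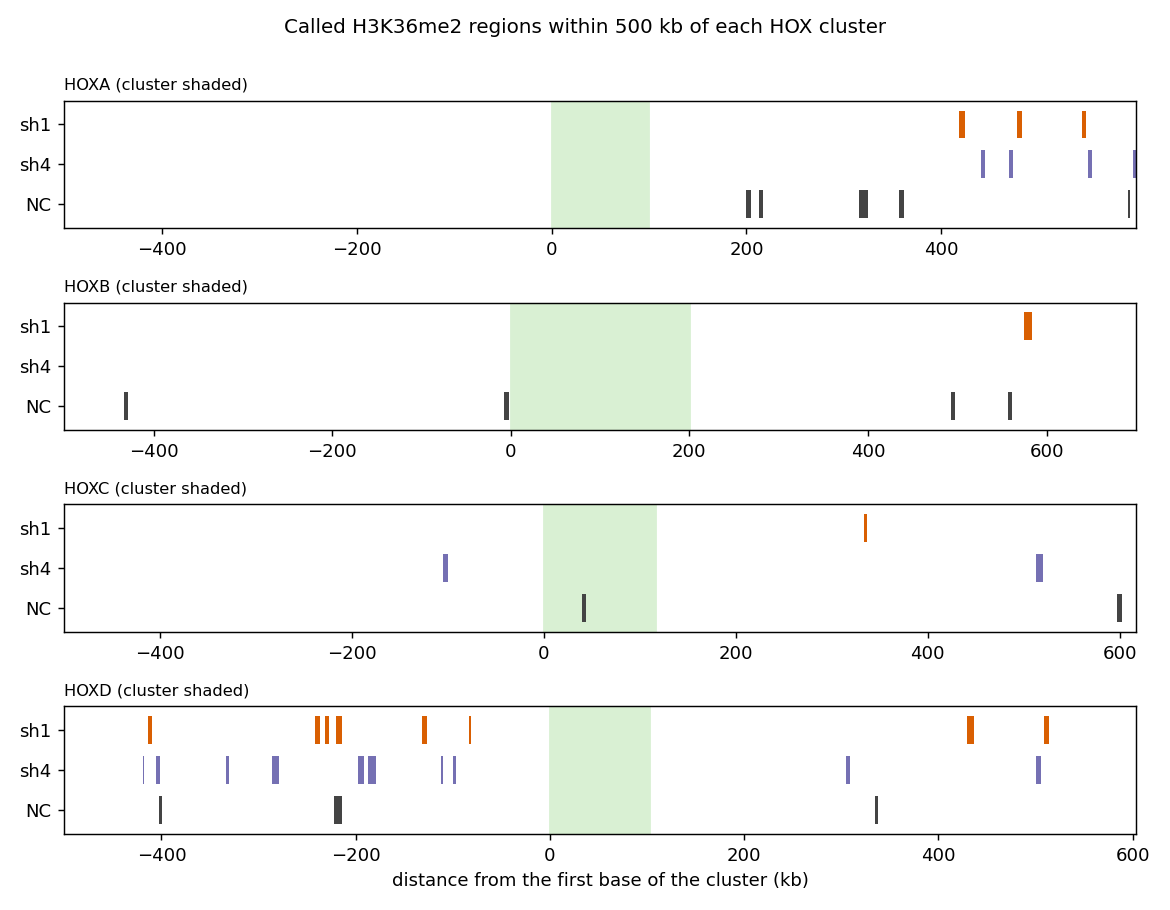
H3K36me2 regions called within 500 kb of each HOX cluster in sh1, sh4 and NC. The x axis is the distance from the first base of the cluster in kb, shading marks the cluster, and each block is a region drawn at its width. HOXD has 8 regions in sh1 and 10 in sh4, against 3 in NC, and only NC has a region inside a cluster (HOXC).

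Among the neighbours in the flanks, the homeobox gene EVX2 next to HOXD13 had the KDM2A peak of highest fold and pileup in the 4 clusters and their flanks. It covered 752 bp, chromosome 2, 176081819 to 176082570, with a pileup of 15, a fold of 5.05 and an FDR of 5.36e-05. EVX1, its counterpart beyond HOXA13, had 5 peaks with a highest fold of 3.21 and an FDR of 0.0793. TTLL6, a tubulin polyglutamylase gene beyond HOXB13, had 20 peaks over its length with a highest fold of 3.06. PRAC1 and PRAC2 lie beside HOXB13 inside the cluster and not in its flanks. They had 4 and 7 peaks, and the best peak of PRAC2 was also the best of HOXB13.

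The non-coding genes of the clusters held between 0 and 9 KDM2A peaks in their bodies, the 9 in both HOXA-AS3 and HOXB-AS3. HOTAIR, a long RNA known for binding Polycomb proteins, had 7 peaks in its body with a highest fold of 2.79 in and around it. HOTTIP, at the HOXA13 end, had 2 peaks in its body and a highest fold of 2.51 within 2 kb, and HOTAIRM1, at the HOXA2 end, had 1 and 3.34. HAGLR in HOXD had 4 peaks in its body and a highest fold of 3.15, shared with HAGLROS inside it. Of the microRNA genes none had a peak in the hairpin itself. MIR10A, MIR196A1, MIR196A2, MIR615 and MIR10B had a peak within 2 kb, and MIR196B, whose nearest peak lay 3844 bp away, had none.

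Genes that act with or upstream of the HOX genes were read in the same way. The shares over all protein-coding genes were 84.0% with a peak at an end and 5.55% at FDR under 0.05, and for H3K36me2 in the body 16.2% in sh1, 15.4% in sh4 and 20.0% in NC. Lists this short allow no reading against those shares. Of the HOX cofactors read, 8 genes such as PBX2, MEIS1 and PKNOX1, all 8 carried a KDM2A peak at either end and none at FDR under 0.05, with PBX2 highest at a fold of 2.95. H3K36me2 lay in the bodies of 1 cofactor in sh1, 2 in sh4 and 5 in NC. Of 12 inducers and retinoic acid genes all 12 had a peak at an end and 2 at FDR under 0.05. These were CYP26B1 (fold 4.42) and CYP26A1 (3.77), enzymes that clear retinoic acid. H3K36me2 lay in the body of 1 of the 12 in each library.

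Of 13 ParaHox and other homeobox genes all 13 carried a peak at an end and 3 at FDR under 0.05, EVX2 (5.05), OTX2 (3.94) and GSX2 (3.89). None of these 13 had H3K36me2 in the body in sh1, sh4 or NC, where the shares over all genes were 16.2% in sh1, 15.4% in sh4 and 20.0% in NC. OTX2 marks forebrain and midbrain, and GSX2 the ventral forebrain. Of 11 chromatin regulators of HOX genes 10 had a peak at an end and none at FDR under 0.05, near the shares over all genes (84.0% and 5.55%), with CTCF highest at 2.83, and SUZ12 had none. H3K36me2 lay in the bodies of 1 regulator in sh1, 2 in sh4 and 2 in NC. Medians of the highest fold were 2.81 for cofactors, 2.70 for inducers, 3.07 for other homeobox genes and 2.59 for chromatin regulators, against 2.59 for all genes.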

How the data were processed

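Chromatin immunoprecipitation libraries of KDM2A (NC cells) and H3K36me2 (sh1, sh4 and NC cells) were used as 4 deposited lists, 1 library per group. The tools in the submitters' processing notes are Bowtie 1.1.2, SICER and MACS2, and the genome build appears as GRCh38 and hg38; no role is given. Per the file headers, the authors gave each region a fold enrichment (a linear ratio to background), a p-value and an FDR. The deposited score of an H3K36me2 region is 100 times the log2 of its fold and was not used further. The KDM2A list also holds the authors' pileup, a signal of stacked fragments at the peak. Depth is unknown beyond these values.

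H3K36me2 starts were counted from 0 on a 200 bp grid and were converted to 1-based positions. Immunoprecipitate and input reads were recovered from fold and p-value under a Poisson model, and those recovered were whole within 0.001 and 0.01. Reads were recovered for 19498 of 19501 regions in sh1, 21487 of 21493 in sh4 and 19686 of 19691 in NC; the p-values of the others were too small. The recovery was tested on simulated data. Gene limits came from RefSeq (GRCh38.p14), which gives no strand, so both ends were used, 2 kb to each side. Peaks were placed by midpoint for densities and by 1 bp overlap for genes. All 38 members were found, and 1 gene of the family and 2 of the further lists are not reported here. Windows of 200 kb and 100 kb counted if they held a KDM2A peak. Intervals are exact Poisson, or Clopper-Pearson for shares, at 95%, and cover counting error only.

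Named with full values were the 3 members with the highest fold at an end per cluster, members past FDR 0.05 or without a peak, and the nearest H3K36me2 region on each side. Promoter windows printed were, per cluster, the matched window under the peak of highest fold on such a window, and HOXA13, added later. Members, lists and rules were chosen with earlier results of these data known. Alternatives were other windows, flanks, peak thresholds and overlaps. Columns of other samples in the files numbered 0. Python 3.11.15, numpy 2.4.6, pandas 2.3.3, scipy 1.17.1 and matplotlib 3.10.9 were used.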

Additional observations from a re-analysis of the deposited data

How the results depend on the processing

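The density of KDM2A peaks in the clusters over their flanks was 1.30, and was 1.40 and 1.45 with flanks of 20 and 100 kb and 1.30 with any overlap. Peaks at FDR under 0.05 gave 1.15 (0.132 to 13.8), too few to bear on it. The 10% of peaks of highest fold gave 0.922 (0.365 to 2.38), with 0.668 for HOXA, 1.50 for HOXB, 0.853 for HOXC and 1.29 for HOXD. HOXB gave 0.499 with peaks at FDR under 0.05, and HOXD gave 1.29 with flanks of 100 kb. The cause was not tested. Members with a peak at an end numbered 37, and 36, 38 and 37 with windows of 1 kb, 5 kb and by midpoint. They fell to 6 with the peaks of highest fold. Among the 20 members with a promoter entry they were 18 at the annotated start and 19 at both ends, where fewer genes were counted. Members with a peak at FDR under 0.05 numbered 2, and 1 with a window of 1 kb, 9 with 5 kb, and 1 at the start or at both ends of those 20 members. With 5 kb, neighbouring members can share the same peak. Shares over all genes are given for 2 kb windows only, so counts with other windows or starts alone have no baseline here. Median pileup was 12 instead of 8 at FDR under 0.05.

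The covered percent of the clusters with flanks was 0.182 in sh1, 0.279 in sh4 and 0.727 in NC with flanks of 100 kb. In NC it was 0.653 with no flank and 0.369 with regions of a fold above the NC median. With those regions the median gap of the 4 clusters was 682240 bp in sh1, 298370 bp in sh4 and 310817 bp in NC, against 267540 bp in sh1, 220170 bp in sh4 and 51017 bp in NC with all regions. Gene bodies with 2 kb sides held H3K36me2 for 2 members in NC, HOXC11 and HOXB1. Every region with recovered reads passed the exact binomial test, and those without (under 10 per library) were kept, so that setting changed nothing. The 2 settings with both ends of 20 members, and the gene-rich windows, were chosen after seeing the data. No paired analysis was possible because each group has 1 library, and for the same reason no library could be left out.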

Other observations

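KDM2A peaks left some stretches of the clusters empty. The widest lay in HOXB, 16321 bp of chromosome 17 (48691865 to 48708185) in the long interval before HOXB13. The widest in HOXD was 8255 bp (chromosome 2, 176090365 to 176098619), inside and after HOXD13. The widest in HOXC was 8240 bp (chromosome 12, 54021730 to 54029969), inside HOXC4, HOXC5 and HOXC6. The widest in HOXA was 7802 bp (chromosome 7, 27165636 to 27173437), after HOXA9 and reaching into HOXA10, and it holds MIR196B. The median distance between midpoints of neighbouring peaks was 1285 bp in HOXC, 1671 bp in HOXA, 1768 bp in HOXB and 2768 bp in HOXD.

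Outside the members, a peak of the HOXB flank (chromosome 17, 48758141 to 48758596) had a pileup of 13, a fold of 3.90 and an FDR of 0.00648. It and the EVX2 peak were the flank peaks at FDR under 0.05.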
